A study of Mus musculus with 12 samples.

Results

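Calcium cycling through the sarcoplasmic reticulum was described here through 10 genes of the 48526 that were counted in sorted Purkinje cells (PCs) and ventricular myocytes (VMs) of Ncam-1 WT and Ncam-1 KO mouse hearts. The members were chosen by name from a list that had been drawn up with the values of these same libraries in view. Of the 10, 8 are protein-coding: Ryr2, Casq2, Trdn, Jph2, Atp2a2, Pln, Slc8a1 and Camk2d. The other 2, Gm43359 and Gm43360, are unspliced transcripts that lie within Atp2a2 and belong to TEC, the annotation's class for transcripts that still await experimental support. Because the choice drew on these values, the fold changes of the members below are descriptions given without p-values, and how many of them a fit across all genes called is reported as a count only.

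In a working myocyte, depolarization lets a little calcium in through the surface membrane, and that calcium opens the ryanodine receptor RYR2, which empties the sarcoplasmic reticulum onto the myofilaments. Relaxation follows when the pump SERCA2, the product of Atp2a2, returns calcium to the store under the brake of phospholamban (Pln) and when the sodium-calcium exchanger NCX1 (Slc8a1) expels the rest. Calsequestrin (Casq2) buffers calcium inside the store, triadin (Trdn) and junctophilin 2 (Jph2) hold the release site together, and the kinase CaMKII delta (Camk2d) tunes both release and uptake. Purkinje cells conduct the impulse rather than generate force, and they are known for sparse T-tubules and for spontaneous calcium release.

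All animals were adult males that carried the Cntn2-EGFP bacterial artificial chromosome transgene, a reporter of the conduction system kept on CD1, crossed to the Ncam-1-/- line or its WT counterpart kept on C57BL/6. Hearts were digested by perfusion and incubated with 50 nM of the mitochondrial dye TMRM, and a microfluidic sorter then took PCs as RFP+GFP+ and VMs as RFP+GFP-. Each of WT PC, KO PC, WT VM and KO VM had 3 libraries, 12 in all. Ncam-1 was deleted throughout life and in both cell types, and among dye-positive cells PCs were told from VMs by the reporter alone. Nothing states whether a PC and a VM library of the same number came from the same heart. How many hearts went into a library is not stated either. Since the sources do not say that replicates came from separate animals, the standard errors below refer to libraries. They are those implied by edgeR's quasi-likelihood F, whose estimate of variability draws on all genes tested. They can therefore differ from the spread of a gene's own libraries.

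For Ncam1, WT PC libraries held 34 to 116 counts, KO PC libraries 0 to 1, WT VM libraries 0 to 9 and every KO VM library 0. Genes received 13883427 to 42505705 counts a library, of which 79.0% to 91.3% fell on the mitochondrial genome. This left 1532393 to 6761356 nuclear counts. Every KO VM library held fewer nuclear counts than every WT VM library, at 2115665 to 2622827 against 3124490 to 3986000. WT PC replicate 2 stood apart, in that 63.9% of its reads failed to align, where the rest ranged from 18.8% to 24.7%, so the values it moved most are given with and without it. The sorting gene Cntn2 had 231 to 922 raw counts in WT PCs and 2 to 7 in VMs, but only 22 and 39 in KO PC replicates 1 and 2 beside 677 in replicate 3. The 11 cardiomyocyte markers were abundant in every library, with summed normalized counts of 416038 to 683127 and none at or under 3 counts throughout a group. The 12 Purkinje cell markers, Cntn2 among them, summed to 1582 to 4032 normalized counts in WT PCs, 996 to 2276 in KO PCs, 616 to 743 in WT VMs and 863 to 1116 in KO VMs, so KO PCs overlapped KO VMs. Their median log2 fold change for KO PC against WT PC was −1.28, with none of 12 called by edgeR, while 5 were called higher in PCs of each genotype. PC libraries also held more RNA of markers of other cell types. The 8 fibroblast markers summed to 668 to 1676 in PCs and 72 to 421 in VMs. The 9 endothelial markers summed to 891 to 2913 in PCs and 112 to 827 in VMs. The 8 smooth muscle and pericyte markers summed to 1004 to 2477 and 253 to 978, and the 9 leukocyte markers to 287 to 821 and 14 to 165. The 6 atrial myocyte markers overlapped, at 79 to 1001 in PCs and 41 to 384 in VMs, as did the 8 neuron and glia markers, at 5 to 86 and 11 to 27. Whether the RNA of these markers came from other cells was not tested. The part of such cells, or of how many PCs each PC library held, in any value below was not tested either. In sorted bulk material, fewer cells of a type and less RNA per cell cannot be told apart.

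The 8 protein-coding members took a sizeable share of what the nucleus contributed. They held 4.07%, 3.57% and 3.63% of nuclear counts in WT PC replicates 1 to 3 and 4.48%, 4.35% and 4.22% in KO PCs. In WT VMs the shares were 4.07%, 4.32% and 4.38%, and in KO VMs 5.47%, 4.79% and 5.45%. The KO VM libraries were thus the 3 highest of the 12. Every one of the 10 members passed the filter of a mean normalized count above 5 in all 5 comparisons.

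Levels of different genes were compared per kilobase of annotated exon, as normalized counts divided by the length of the union of exons. Pln was the most abundant member in each group, at 16829 ± 1245 (SD, n = 3) normalized counts per kilobase in WT PCs, 15466 ± 204 in KO PCs, 16160 ± 2171 in WT VMs and 17773 ± 2250 in KO VMs. Atp2a2 came next, at 6899 ± 1404, 8925 ± 269, 9140 ± 132 and 12149 ± 1059 in the same order of groups. Casq2, Ryr2 and Trdn followed in that order in every group, at 1158 to 1542 for Casq2, 433 to 893 for Ryr2 and 161 to 260 for Trdn as group means. The libraries of neighbours in this upper order did not overlap, except for Ryr2 and Trdn in WT PCs, where Trdn was above Ryr2 in replicate 2.

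The lower part of the order was less settled. Camk2d, Slc8a1, Jph2 and the TEC genes had group means between 13.3 and 66.9 normalized counts per kilobase, and their ranks changed from group to group. In WT VMs, Gm43359 and Camk2d overlapped, as did Slc8a1 and Jph2, and Jph2 and Gm43360. The length used matters for Camk2d and Ryr2, whose annotated exons add up to 22493 and 28790 bases although their longest transcripts have 5524 and 16814. With the longest transcript as divisor, Camk2d stood at 210 to 270 normalized counts per kilobase by group, the order from Pln to Trdn was kept, and Camk2d ranked sixth in every group.

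**Figure D1:**
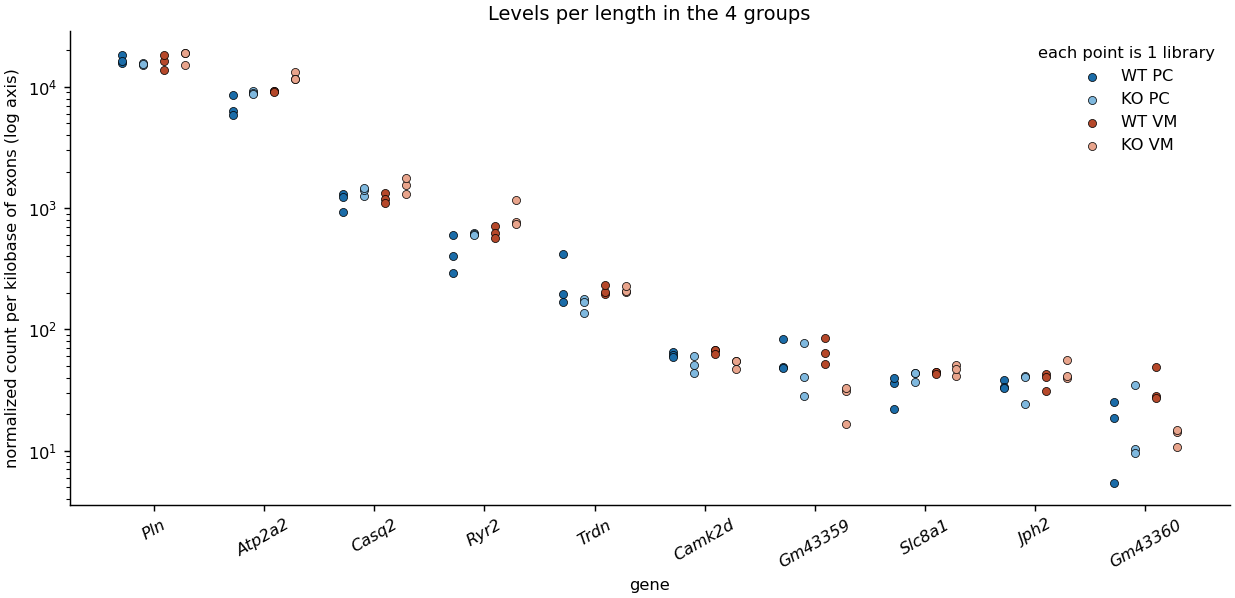
Normalized counts per kilobase of annotated exon (log axis) for the 10 members, with 1 point for each of the 12 libraries and the groups in colour. Pln and Atp2a2 lie above all other members in every library, and the members from Camk2d down lie close together.

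Stretches of the genome ahead of 3 members are shown because the release channel, the luminal buffer and the pump inhibitor differ widely in the composition of their start regions. RefSeq promoter records on GRCm38.p6 matched 6 of the 8 protein-coding members; Atp2a2 and Trdn had no entry. The 250 bases upstream of the start site are printed 5′ to 3′ on the coding strand, for Ryr2 at chr13:12106946-12107195 (minus strand), Casq2 at chr3:102086165-102086414 (plus strand) and Pln at chr10:53337436-53337685 (plus strand). Capitals mark matches on either strand to the TATA box TATAAA, the E-box CANNTG, the GC box GGGCGG, the CArG box and the MEF2 site.
Ryr2: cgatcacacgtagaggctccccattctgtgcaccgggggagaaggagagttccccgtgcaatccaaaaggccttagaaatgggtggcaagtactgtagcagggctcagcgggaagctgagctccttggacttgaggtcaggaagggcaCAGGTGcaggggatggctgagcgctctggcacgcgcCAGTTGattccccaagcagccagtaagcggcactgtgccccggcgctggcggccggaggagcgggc
Casq2: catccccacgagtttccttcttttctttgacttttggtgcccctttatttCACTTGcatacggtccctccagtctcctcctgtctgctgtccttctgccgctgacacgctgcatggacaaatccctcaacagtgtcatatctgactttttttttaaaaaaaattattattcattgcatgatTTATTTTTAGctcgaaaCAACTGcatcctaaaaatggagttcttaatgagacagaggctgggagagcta
Pln: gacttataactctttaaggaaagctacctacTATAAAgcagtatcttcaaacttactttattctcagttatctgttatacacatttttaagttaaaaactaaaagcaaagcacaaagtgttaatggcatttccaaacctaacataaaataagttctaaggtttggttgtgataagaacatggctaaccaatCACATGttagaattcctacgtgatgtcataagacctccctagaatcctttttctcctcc
GC content was 63.2% for Ryr2, 41.6% for Casq2 and 32.8% for Pln, against a median of 52.4% over 32851 promoters of the same length. Ryr2 held 2 E-boxes. Casq2 held 2 E-boxes and a MEF2 site that began 69 bases before the start site, and Pln held an E-box and a TATA box that began 219 bases before it. Among all promoters, 66.2% held an E-box, 32.7% a GC box, 12.4% a TATA box, 2.92% a MEF2 site and 1.47% a CArG box. The core of GATA factors, GATAAG, was also searched on both strands and is left in lower case, as are the NKX2-5 core, AAGTG, and the TEAD core, CATTCC. Pln held the GATA core and the NKX2-5 core, and Casq2 held the NKX2-5 core within its first E-box. Of all promoters, 6.55% held the GATA core, 40.7% the NKX2-5 core and 12.6% the TEAD core. A match is a run of letters and not a bound site.

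Ryr2 (ENSMUSG00000021313, chr13:11553102-12106945, minus strand), the release channel, reached 17306, 8358 and 11699 normalized counts across WT PC replicates 1 to 3 and 17931, 17659 and 17387 across the KO PC libraries. In WT VMs it had 20582, 17997 and 16466, and in KO VMs 22195, 21267 and 33700. Every KO library lay above every WT library of the same cell type, the gap being narrow in PCs, where WT PC replicate 1 sat just under the KO PC libraries. The log2 fold change of KO over WT was 0.50 (SE 0.27) in PCs and 0.48 (SE 0.16) in VMs. PCs were lower than VMs by both genotypes' fits, at −0.59 (SE 0.28) for WT, where WT PC replicate 1 overlapped the VM libraries, and −0.54 (SE 0.16) for KO, where no library overlapped. WT PC replicate 2 held the lowest Ryr2 value of all, and without it the log2 fold change was −0.36 (SE 0.18) for WT PC against WT VM and 0.27 (SE 0.19) for KO PC against WT PC. KO VM replicate 3 held the highest, and leaving out single libraries moved the KO VM against WT VM value between 0.25 and 0.62.

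Casq2 (ENSMUSG00000027861, chr3:102086415-102146514, plus strand), the buffer that stores calcium beside the release channel, varied less. It had 3599, 3351 and 2558 normalized counts among WT PCs, 3431, 3875 and 4024 in KO PCs, 3660, 3274 and 3027 in WT VMs, and 3581, 4218 and 4861 in KO VMs. The groups overlapped in each comparison. The log2 fold change of KO over WT was 0.26 (SE 0.22) in PCs and 0.34 (SE 0.14) in VMs, and that of PC over VM was −0.10 (SE 0.20) in WT and −0.16 (SE 0.14) in KO.

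Trdn (ENSMUSG00000019787, chr10:33080554-33476709, plus strand), which anchors calsequestrin to the release channel, turned on a single library. WT PCs had 1567, 3903 and 1833 normalized counts, KO PCs 1280, 1660 and 1572, WT VMs 1825, 1912 and 2182, and KO VMs 1891, 1948 and 2129. WT PC replicate 2 was the highest of all 12, and it was the same library in which Ryr2 was lowest. With it, the log2 fold change was 0.26 (SE 0.32) for WT PC against WT VM and −0.68 (SE 0.33) for KO PC against WT PC. Without it these became −0.23 (SE 0.16) and −0.19 (SE 0.18). In the KO hearts, which this library does not touch, all PC libraries lay below all VM libraries, with a log2 fold change of −0.40 (SE 0.14). In VMs the genotypes were level, at 0.00 (SE 0.13).

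Jph2 (ENSMUSG00000017817, chr2:163336242-163397993, minus strand), which ties the sarcoplasmic reticulum to the surface membrane, was the least counted protein-coding member. It had 163, 142 and 141 normalized counts among WT PCs, 176, 173 and 102 in KO PCs, 183, 172 and 132 in WT VMs, and 238, 168 and 175 in KO VMs, from raw counts of 73 to 375. The groups overlapped in each comparison. Its log2 fold changes ran from −0.38 (SE 0.23) for KO PC against KO VM to 0.25 (SE 0.19) for KO VM against WT VM.

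Atp2a2 (ENSMUSG00000029467, chr5:122453513-122502225, minus strand), the calcium pump, was lowest in WT PCs and highest in KO VMs. It had 51617, 38787 and 35446 normalized counts among WT PCs, 55958, 54167 and 52690 in KO PCs, 55755, 56280 and 54708 in WT VMs, and 81305, 70350 and 69971 in KO VMs. KO libraries lay above WT libraries in both cell types, and PC libraries lay below VM libraries in both genotypes, while KO PCs and WT VMs overlapped. The log2 fold change of KO over WT was 0.37 (SE 0.22) in PCs and 0.40 (SE 0.12) in VMs, that is, 1.29-fold and 1.32-fold. PC over VM gave −0.44 (SE 0.21) in WT and −0.44 (SE 0.13) in KO. Without WT PC replicate 2 the values that involve WT PCs were −0.37 (SE 0.17) against WT VM and 0.30 (SE 0.19) for KO against WT.

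Pln (ENSMUSG00000038583, chr10:53337667-53345987, plus strand), the inhibitor of that pump, did not follow it. It had 43647, 50268 and 45374 normalized counts among WT PCs, 43193, 42074 and 42746 in KO PCs, 38324, 45178 and 50256 in WT VMs, and 52697, 41868 and 52540 in KO VMs. The KO PC libraries all lay just under the WT PC libraries, with a log2 fold change of −0.12 (SE 0.19), and in the other comparisons the groups overlapped. For WT PC against WT VM the value was 0.02 (SE 0.19), and −0.02 (SE 0.16) without WT PC replicate 2. In VMs the log2 fold change of KO over WT was 0.13 (SE 0.14). Cep85l, which overlaps exons of Pln on the opposite strand, had at most 144 counts in a library against at least 24573 for Pln.

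The ratio of Pln to Atp2a2 per length therefore differed between libraries. It was 1.86, 2.86 and 2.82 in WT PCs, 1.70, 1.71 and 1.79 in KO PCs, 1.51, 1.77 and 2.02 in WT VMs, and 1.43, 1.31 and 1.65 in KO VMs. The KO PC libraries all lay under the WT PC libraries, whereas the VM genotypes overlapped. The ratio of Ryr2 to Atp2a2 per length was 0.0455 to 0.0780 in 11 libraries and 0.102 in KO VM replicate 3.

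Slc8a1 (ENSMUSG00000054640, chr17:81373105-81738377, minus strand), the sodium-calcium exchanger of the surface membrane, had 685, 412 and 754 normalized counts among WT PCs, 823, 693 and 819 in KO PCs, 832, 835 and 806 in WT VMs, and 774, 964 and 886 in KO VMs. Only WT PCs stood clear of a partner group, below WT VMs, with a log2 fold change of −0.44 (SE 0.26) that became −0.21 (SE 0.16) without WT PC replicate 2. In VMs the value of KO over WT was 0.08 (SE 0.14).

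Camk2d (ENSMUSG00000053819, chr3:126596302-126846326, plus strand), the kinase that phosphorylates both the release channel and phospholamban, had a negative log2 fold change of KO over WT in both cell types. It had 1453, 1383 and 1320 normalized counts among WT PCs, 986, 1136 and 1357 in KO PCs, 1534, 1529 and 1412 in WT VMs, and 1052, 1229 and 1241 in KO VMs. In VMs the genotypes did not overlap and the log2 fold change was −0.35 (SE 0.13). In PCs the highest KO library lay within the WT range and the value was −0.25 (SE 0.22). PCs and VMs of the same genotype overlapped, at −0.14 (SE 0.18) in WT and −0.01 (SE 0.15) in KO.

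**Figure D2:**
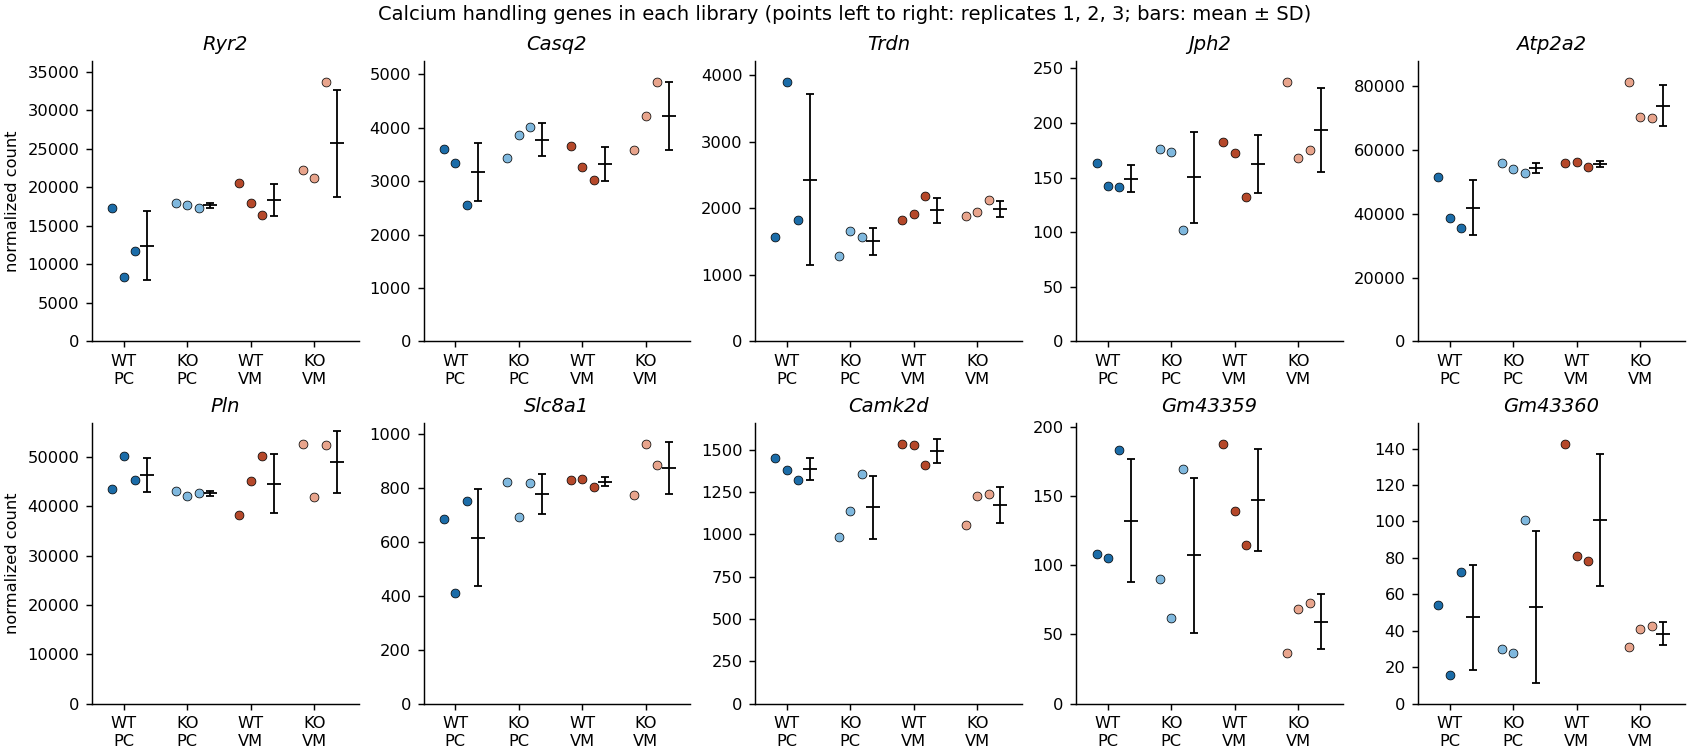
Normalized counts of the 10 members in each library, with 1 point a library, replicates 1 to 3 from left to right in each group, and the mean ± SD (n = 3) beside them. KO VM libraries are highest for Atp2a2 and lowest as a group for Gm43359, and WT PC replicate 2 holds the extreme values of Ryr2 (8358) and Trdn (3903).

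Gm43359 (ENSMUSG00000105434) spans 2200 bases at chr5:122482800-122484999 and lies in the intron between exons 5 and 6 of the longest coding transcript of Atp2a2, which has 20 exons. Gm43360 (ENSMUSG00000105970) spans 2887 bases at chr5:122492022-122494908, between exons 3 and 4. Both are annotated on the strand of Atp2a2 and touch no exon of it, so by these coordinates a read counted for either lies inside an intron of the pump gene. The annotation release used in counting is not settled by the sources used here. Another TEC gene of the locus, Gm43361, lies on the opposite strand and overlaps an Atp2a2 exon. The strand setting used in counting was not given in the sources used here.

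**Figure D3:**
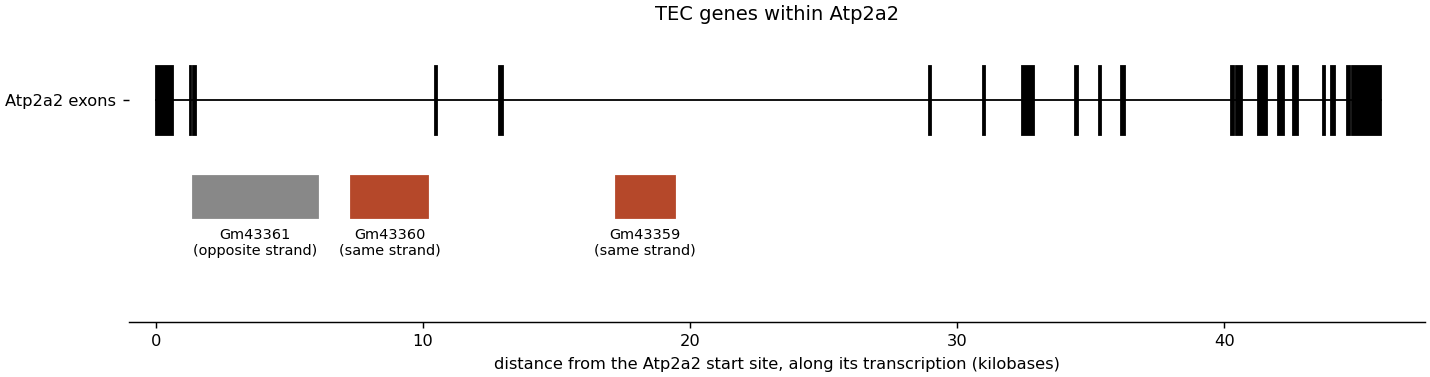
Exons of the longest coding transcript of Atp2a2 (black) and the TEC genes within the locus (red on the strand of Atp2a2, grey on the opposite strand), by distance in kilobases from the Atp2a2 start site. Gm43360 and Gm43359 each fall wholly within an intron.

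The last 150 annotated bases of both are shown because they mark where the annotation of each gene ends within the intron. They were read from the GENCODE M21 transcript sequences on GRCm38, at chr5:122482800-122482949 for Gm43359 and chr5:122492022-122492171 for Gm43360, both on the minus strand. Capitals mark matches to AATAAA, the letters of the polyadenylation signal. Where reads ended was not examined.
Gm43359: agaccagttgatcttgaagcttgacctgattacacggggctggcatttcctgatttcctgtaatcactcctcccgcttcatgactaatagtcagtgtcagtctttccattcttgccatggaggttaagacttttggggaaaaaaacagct
Gm43360: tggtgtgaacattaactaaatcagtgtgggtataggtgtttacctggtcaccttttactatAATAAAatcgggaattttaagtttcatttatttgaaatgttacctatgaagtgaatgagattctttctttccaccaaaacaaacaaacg
The last 150 bases of Gm43360 held AATAAA once, 89 bases before the end, and those of Gm43359 did not hold it. Over its whole length, Gm43360 held it 5 times and Gm43359 held it 2 times. Of 3268 TEC transcripts of at least 150 bases, 28.2% held it in their last 150 bases.

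Gm43359 had 108, 105 and 183 normalized counts among WT PCs, 89.6, 61.9 and 170 in KO PCs, 188, 139 and 115 in WT VMs, and 36.8, 68.1 and 72.9 in KO VMs. Gm43360 had 54.1, 15.6 and 72.2, then 29.9, 27.8 and 101, then 142, 81.0 and 78.4, and 31.1, 41.1 and 42.8 in the same order of groups. KO VMs lay below WT VMs in every library for both genes, opposite to their host Atp2a2. Raw counts were 26 to 63 for Gm43359 and 22 to 37 for Gm43360 in KO VMs, against 148 to 200 and 86 to 152 in WT VMs. Nuclear depth was also lower in every KO VM library than in every WT VM library. The part of depth in these values was not tested. The log2 fold change of KO VM over WT VM was −1.30 (SE 0.26) for Gm43359 and −1.38 (SE 0.28) for Gm43360, the largest in size among the members, and leaving out single libraries moved these between −1.47 and −1.06 and between −1.53 and −1.06. In PCs the genotypes overlapped, at −0.29 (SE 0.43) and 0.15 (SE 0.67). For WT PC against WT VM the values were −0.17 (SE 0.33) and −1.06 (SE 0.52), and for KO PC against KO VM they were 0.88 (SE 0.35) and 0.52 (SE 0.44). KO PC replicate 3 held the highest KO value of both genes, and without it the last value was −0.42. Without WT PC replicate 2, WT PC against WT VM gave −0.03 (SE 0.27) for Gm43359 and −0.68 (SE 0.30) for Gm43360, and KO PC against WT PC gave −0.41 (SE 0.37) and −0.19 (SE 0.48), the last with its sign turned.

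Set against the host, the gap between KO VMs and WT VMs was wider. The 2 genes together had 3.14, 3.12 and 7.21 counts per 1000 Atp2a2 counts among WT PCs, 2.14, 1.65 and 5.14 in KO PCs, 5.92, 3.91 and 3.53 in WT VMs, and 0.835, 1.55 and 1.65 in KO VMs. All KO VM libraries lay below all WT VM libraries, and KO PC replicate 2 was level with the highest KO VM library. Gm43361, annotated on the opposite strand, had 7.37, 3.38 and 3.60 counts per 1000 Atp2a2 counts in WT VMs. In KO VMs it had 1.57, 2.39 and 2.83, also without overlap. Its log2 fold change of KO over WT was −0.69 in VMs and 0.30 in PCs.

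TEC genes at large were also lower in KO VMs. Of 169 TEC genes tested in KO VM against WT VM, 18.9% had a positive log2 fold change, the median was −0.54 beside −0.02 over all genes tested, and 30 of the 31 with an unadjusted p under 0.05 were lower, with none passing edgeR's adjusted threshold. Those that lie in an intron of a coding gene on its strand numbered 107, of which 94 were lower, with a median of −0.68. Gm43359 and Gm43360 held ranks 25 and 20 from the lowest of the 169. Leaving out WT VM replicate 1 reduced the median over TEC genes to −0.30, and across single libraries left out it ran from −0.76 to −0.30. In KO PC against WT PC the median of 243 TEC genes was −0.03, and it ran from −0.44 to 0.35 as single libraries were left out. In KO PC against KO VM the median of 152 TEC genes was 0.56, and 77.0% of them had a positive log2 fold change. That median ran from 0.31 to 0.79 as single libraries were left out.

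Reads that aligned to no annotated exon varied in a similar way. They came to 19.6, 17.0 and 26.0 per 100 nuclear counts among WT PCs, 20.4, 18.1 and 24.8 in KO PCs, 26.5, 17.9 and 15.7 in WT VMs, and 12.9, 15.7 and 15.9 in KO VMs. In each of the 4 groups, the library with the most such reads was also the one with the highest Gm43359 value. WT VM and KO VM overlapped on this measure. Camk2d holds 7 TEC genes in its introns, and their summed counts per 1000 Camk2d counts were 70.9, 25.8 and 49.2 in WT VMs and 18.8, 40.8 and 23.3 in KO VMs, which overlap. Camk2d itself had a log2 fold change of −0.35 for KO VM over WT VM. Of its TEC genes, those tested there were Gm43010 at −0.45, Gm42515 at −1.38 and Gm43011 at −1.37. Within Casq2, the intronic 4632404M16Rik had a log2 fold change of −0.94 for KO VM over WT VM and −0.73 for KO PC over WT PC. Within Ryr2, Gm26956, a pseudogene on the opposite strand with at most 13 counts in a library, had 0.06 and −0.13. The TEC genes of Camk2d had −0.96 (Gm43010), 0.38 (Gm42515) and 0.50 (Gm43011) for KO PC over WT PC. The part of unspliced RNA or of nuclear carry-over in the values of Gm43359 and Gm43360 was not tested.

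**Figure D4:**
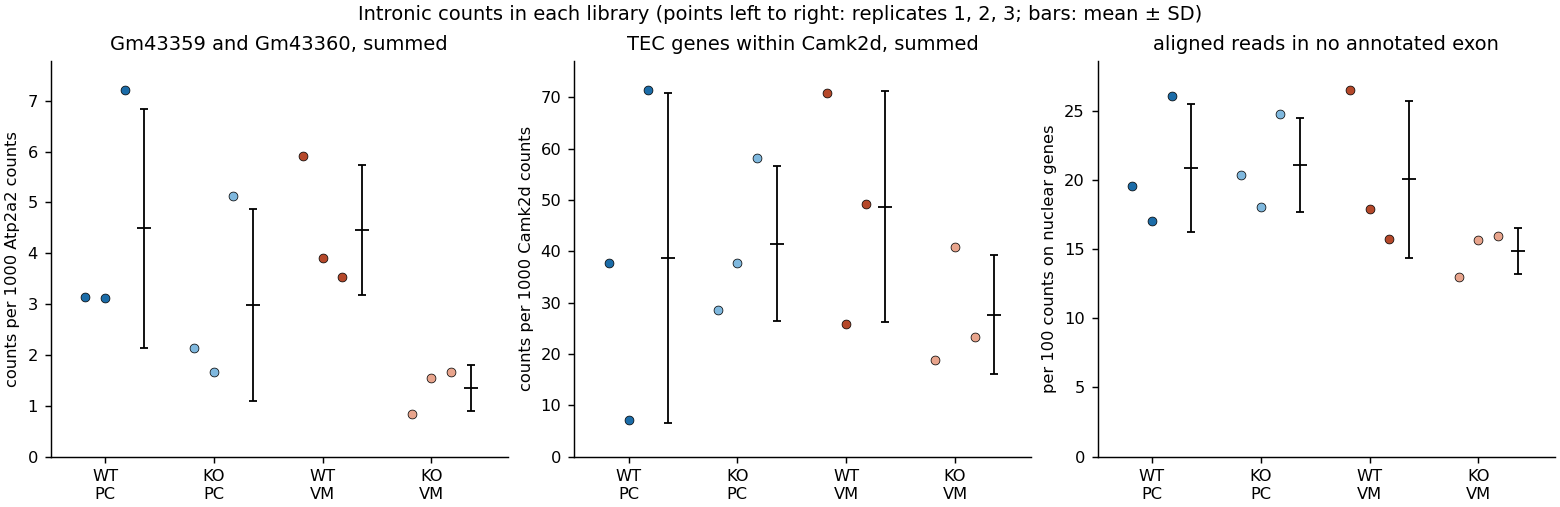
Counts of Gm43359 and Gm43360 per 1000 Atp2a2 counts, counts of the 7 TEC genes within Camk2d per 1000 Camk2d counts, and aligned reads in no annotated exon per 100 nuclear counts, with 1 point a library, replicates 1 to 3 from left to right, and mean ± SD (n = 3). KO VM libraries are lowest in the first panel (0.835 to 1.65) and overlap WT VMs in the others.

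WT PC against WT VM asks how conducting and working myocytes differ in a normal heart. Of the 10 members, 2 had a positive and 8 a negative log2 fold change, with a median of −0.16 beside −0.00 over 11822 genes tested. None was called by edgeR's quasi-likelihood test at an adjusted p under 0.05, against 0.11% of all genes. DESeq2 and limma called none either. Atp2a2, Slc8a1 and Gm43360, 3 of 10, had WT PC libraries wholly below WT VM libraries, against 13.9% of all genes that did not overlap in either direction. Without WT PC replicate 2, the same number of members did not overlap, 26.0% of all genes did not, and all 10 log2 fold changes were negative.

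KO PC against KO VM asks the same in hearts without Ncam-1. Again 2 members were positive, now the TEC genes, and all 8 protein-coding members were negative, with a median of −0.29 for these 8 beside 0.01 over 10779 genes. No member was called by edgeR, against 0.872% of all genes. DESeq2 and limma voom with quality weights each called Atp2a2 and no other member. Ryr2, Trdn and Atp2a2 did not overlap, 3 of 10 beside 15.6% of all genes. In this comparison edgeR also called 3 of 7 fibroblast markers, 3 of 9 endothelial markers, 2 of 7 smooth muscle and pericyte markers and 1 of 5 leukocyte markers higher in KO PCs, but 0 of 11 cardiomyocyte markers, whose median log2 fold change was −0.10.

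KO PC against WT PC asks what loss of Ncam-1 changes in the cells that express it. The members were split, with 6 positive and 4 negative and a median of 0.08 beside −0.00 over 11754 genes. None was called by edgeR, where 0.0% of all genes were, nor by DESeq2 or limma. Ryr2 and Atp2a2 were higher and Pln lower without overlap, 3 of 10 against 9.52% of all genes. Without WT PC replicate 2 these remained 3 of 10, against 17.9%, and 4 members were positive, with a median of −0.06.

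KO VM against WT VM asks the same in working myocytes, where Ncam1 had few counts in WT. Of the 8 protein-coding members, 7 were positive, among them Trdn at 0.00 (SE 0.13), and Camk2d was negative. Their median was 0.19 beside −0.02 over all genes tested, of which 47.0% were positive. The TEC genes were the other negative values. No member was called by edgeR, against 0.0373% of 10737 genes. DESeq2 called Gm43359 and Gm43360, and limma called none. The libraries did not overlap for Ryr2 and Atp2a2, which were higher, and Camk2d, Gm43359 and Gm43360, which were lower, 5 of 10 against 9.63% of all genes. In this comparison the markers of other cell types had median log2 fold changes of −0.46 for fibroblasts, −0.69 for endothelial cells, −0.77 for smooth muscle cells and pericytes and −0.76 for leukocytes, beside 0.02 for cardiomyocytes, with no marker of these lists called. As these contrasts were in view when the members were chosen, nothing is read from their counts beside the shares over all genes.

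**Figure D5:**
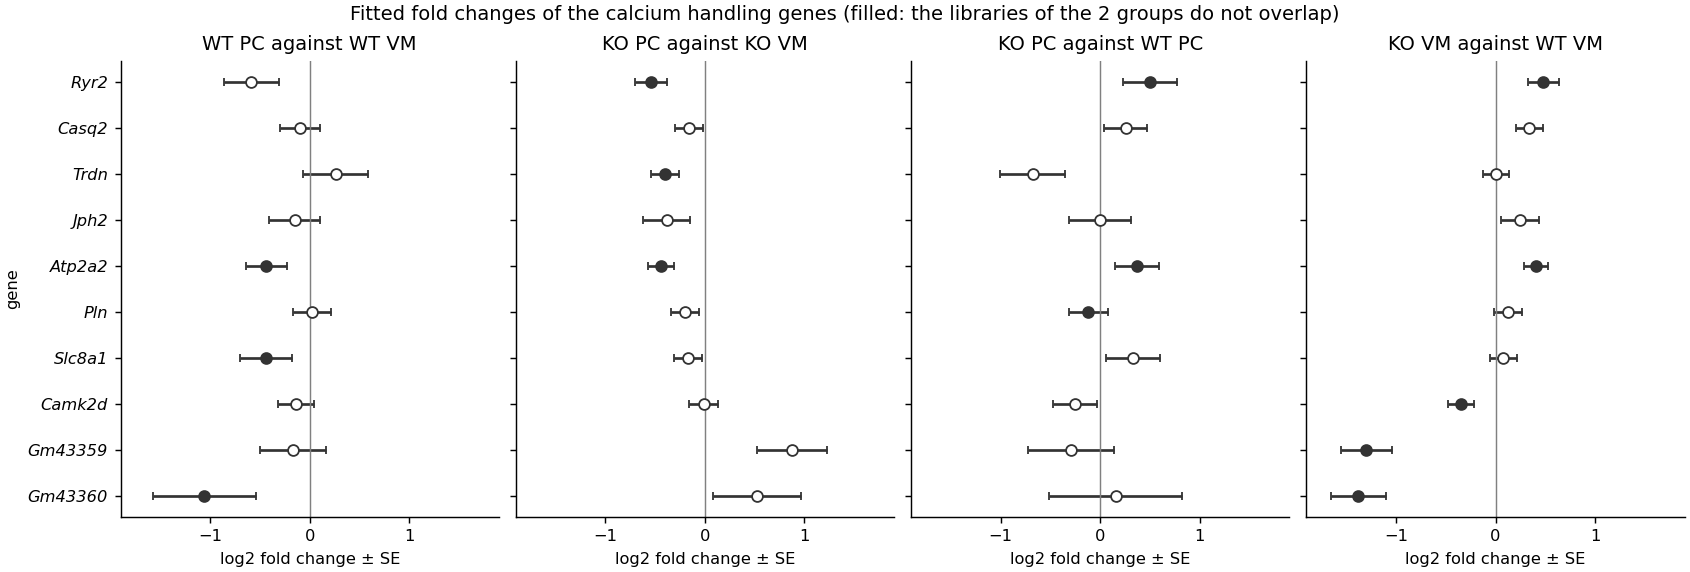
Fitted log2 fold changes ± SE of the 10 members in the 4 pairwise comparisons, with filled points where the libraries of the groups do not overlap. Ryr2 and Atp2a2 lie on the negative side for PC against VM in both genotypes and on the positive side for KO against WT in both cell types.

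The interaction, which asks whether the effect of genotype differed between PCs and VMs, called no member and no gene by edgeR, 0.0% of 11323, nor by DESeq2 or limma. For Ryr2 and Atp2a2 the difference of the 2 genotype effects was near zero, at 0.02 (SE 0.33) and −0.04 (SE 0.23), with a sign that changed as single libraries were left out. It was largest for Gm43360 at 1.53 (SE 0.74), Gm43359 at 1.01 (SE 0.54) and Trdn at −0.70 (SE 0.37). That of Trdn became −0.19 (SE 0.21) without WT PC replicate 2, and those of Gm43360 and Gm43359 became 0.60 and 0.47 without KO PC replicate 3. TEC genes at large leaned the same way, with a median interaction of 0.49 over 203 TEC genes beside 0.01 over all genes. Gm43359 and Gm43360 held ranks 136 and 165 from the lowest of these 203.

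Other calcium handling genes were examined from 6 lists of 92 genes, of which 91 were found in the annotation and 72 to 75 were tested in each pairwise comparison. None was called by edgeR in any of the 5 comparisons with the filter on low counts. At an unadjusted p under 0.05 there were 4 higher and 2 lower for WT PC against WT VM, 8.0% of those tested against 6.36% of all genes. The numbers were 5 and 4 for KO PC against KO VM (12.5% against 9.7%), 1 and 1 for KO PC against WT PC (2.70% against 3.22%), 2 and 2 for KO VM against WT VM (5.56% against 5.12%), and 2 and 2 for the interaction (5.48% against 2.9%). DESeq2 called Ppp1r3a in KO PC against KO VM, and limma called none of them. The median log2 fold change over these genes was −0.06, −0.07, −0.04 and −0.01 in the 4 pairwise comparisons. Given no calls, the 2 genes with the highest level per length are named from each list.

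Among proteins of the release site, Hrc, a calcium-binding protein of the store, had 2349 ± 171 (SD, n = 3) normalized counts among WT PCs, 2399 ± 23.9 in KO PCs, 2219 ± 256 in WT VMs and 2741 ± 413 in KO VMs. S100a1, a small activator of release and uptake, had 827 ± 159, 1114 ± 48.3, 1102 ± 33.3 and 1245 ± 243. Among regulators of uptake, Ppp1r3a, which targets protein phosphatase 1 to glycogen and the sarcoplasmic reticulum, had 2125 ± 348, 1920 ± 60.2, 2404 ± 352 and 2570 ± 140, and a log2 fold change of −0.42 (SE 0.13) for KO PC against KO VM with an adjusted p of 0.16 in edgeR. Prkar1a, a regulatory subunit of protein kinase A, had 1101 ± 167, 1158 ± 189, 1509 ± 155 and 1246 ± 49.0. For WT PC against WT VM the log2 fold changes of S100a1 and Prkar1a were −0.44 (SE 0.21) and −0.49 (SE 0.21), and neither passed the test.

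In the lumen, the chaperone Hspa5 had 1876 ± 406, 1811 ± 76.3, 1991 ± 72.5 and 2276 ± 132 normalized counts, and sarcalumenin (Srl), a calcium-binding glycoprotein, 2218 ± 492, 2457 ± 42.3, 2672 ± 175 and 2702 ± 159. Among the kinase and phosphatase genes, Rcan2, a regulator of calcineurin, had 1742 ± 263, 1922 ± 241, 2028 ± 188 and 2011 ± 336, and Ppp2r3a, a subunit of protein phosphatase 2A, 2378 ± 156, 2423 ± 275, 2703 ± 339 and 2670 ± 446. None of these lists gave a gene called in either direction. At the surface membrane, the calcium pump Atp2b1 had 374 ± 146, 457 ± 26.7, 486 ± 45.8 and 478 ± 74.1, and Fxyd1 (phospholemman) 386 ± 104, 485 ± 110, 340 ± 13.7 and 408 ± 129. In the mitochondrial list, the outer membrane channels Vdac1 and Vdac2 had 2007 ± 597, 2424 ± 91.3, 2680 ± 50.2 and 2658 ± 160, and 1374 ± 306, 1703 ± 303, 1905 ± 99.98 and 1502 ± 208.

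The members did not form a single pattern over the 12 libraries. Pearson's r of each protein-coding member with the mean of the other 7, on standardized log2 values, was 0.75 for Atp2a2, 0.71 for Ryr2, 0.48 for Casq2, 0.29 for Jph2, 0.22 for Slc8a1, 0.09 for Pln, −0.19 for Trdn and −0.32 for Camk2d. Without WT PC replicate 2, the value for Ryr2 was 0.87 and that for Trdn 0.49. Among 5529 other protein-coding genes with a mean normalized count above 50, those most like the mean of the 8 members were Echs1 (r = 0.90), Bmi1 (0.90), Dlst (0.89), Retreg1 (0.89) and Lypla1 (0.88). Echs1 and Dlst encode mitochondrial enzymes of fatty acid oxidation and the citric acid cycle, and Bmi1 encodes a Polycomb protein. These libraries share depth, genotype and sort within groups, so the correlations describe these 12 libraries only.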

How the data were processed

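The members and gene lists were chosen with earlier results of these data known. RNA of sorted PCs and VMs was amplified (Nugen Ovation Trio) and sequenced as 50-base read pairs. Per the labels, the authors aligned reads to mm10 with STAR 2.5.0c, guided by a GRCm38 gene file, and deposited raw counts per gene from HTSeq 0.6.0 for each library, with no normalization; whether strand was used in counting is not given in the sources used here. The release of the gene file used in counting is not settled by these sources, and gene names and coordinates came from GENCODE M21 (GRCm38); 382 gene IDs, with 0.00511% of counts, had no entry there.

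Counts were normalized by TMM in edgeR 4.0.16 (R 4.3.3) and scaled to the geometric mean of effective library sizes; these are the normalized counts. Each comparison was fitted on its 6 libraries (12 for the interaction) with edgeR's quasi-likelihood test, for genes with a mean normalized count above 5, with p-values adjusted by the Benjamini-Hochberg method across every gene tested and a threshold of 0.05. The scripts were tested on simulated counts. Alternatives used DESeq2 1.42.0, limma 3.58.1, other filters and size factors, a replicate block, and libraries left out in turn. The text names all members, 2 genes from each calcium list without calls, the 5 genes most like the members, and Ncam1 and Cntn2. The result of a gene in the surface membrane list is not reported here.

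Replicates differed by more than sampling noise, with a chi-square per degree of freedom of at least 4.00. Depth, at 1532393 to 6761356 nuclear counts, limits precision mainly for Jph2, Gm43359 and Gm43360, whose raw counts were as low as 73, 26 and 8.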

Additional observations from a re-analysis of the deposited data

How the results depend on the processing

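The number of genes called was 13 for WT PC against WT VM. It was 124 with DESeq2, 297 without a filter on low counts, 130 with limma voom and quality weights, 38 in a fit of all 12 libraries, and 1 to 108 as single libraries were left out, the 108 without WT PC replicate 2. For KO PC against KO VM, 94 genes were called, 326 without a filter, 8 in the fit of all libraries, and 19 to 150 as single libraries were left out, the 150 without KO PC replicate 3 and the 19 without KO VM replicate 1. For KO PC against WT PC, 0 genes were called by edgeR, while 378 had an unadjusted p under 0.05. The number was 7 with DESeq2, 132 without a filter, 1 with limma, 3 in the fit of all libraries, and 0 to 4 with single libraries left out. For KO VM against WT VM, 4 genes were called, 10 with DESeq2, 47 without a filter, 1 in the fit of all libraries, and 2 to 10 with single libraries left out. The interaction called 0 genes by edgeR, with 328 at an unadjusted p under 0.05, and 19 without a filter; the count was 0 with DESeq2 and limma and 0 to 0 with single libraries left out. The cause of these shifts was not tested.

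Whether same-numbered PC and VM libraries share a heart is not stated. Their deviations correlated at 0.08 to 0.21 in WT and −0.01 to 0.12 in KO over 8100 genes, not above 0.1 in every pair, so the numbers were not taken to pair the samples. Blocking on the replicate number gave 4 called genes for WT PC against WT VM, 121 for KO PC against KO VM, 1 for KO PC against WT PC and 7 for KO VM against WT VM, no member among them.

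Without a filter, edgeR called Ryr2 in KO PC against KO VM, and Gm43359 and Gm43360 in KO VM against WT VM. Among the other calcium handling genes it then called 1 in WT PC against WT VM, Pde3a, and 2 in KO PC against KO VM, Atp2b4 among them; these were named after their values were seen. The members whose fold change took the other sign under some setting or with some library left out were Casq2, Gm43359, Pln and Trdn in WT PC against WT VM, Camk2d and Gm43360 in KO PC against KO VM, Gm43359, Gm43360 and Jph2 in KO PC against WT PC, Trdn in KO VM against WT VM, and Atp2a2, Camk2d, Casq2 and Ryr2 in the interaction. The runs that left out each library in turn for TEC genes, and the counts of members without overlap without WT PC replicate 2, were chosen after the data had been seen. The 3 libraries of each group and the low nuclear depth limit these calls.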
